A study of Mus musculus with 4 samples.

Results

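The linker histone H1 genes are the 8 mouse genes H1f1 to H1f6, H1f0 and H1f10, read by 12 of the 41174 probes and making up 8 of the 27370 genes on the array. They were taken by name: the array design lists them as Hist1h1a (H1f1), Hist1h1c (H1f2), Hist1h1d (H1f3), Hist1h1e (H1f4), Hist1h1b (H1f5), Hist1h1t (H1f6), H1f0 and H1fx (H1f10). The family was selected on the differences between the groups on these same 4 arrays, since some members were much lower, so the differences of its members are a description and carry no test. All 12 probes of the 8 genes passed the filter on dim probes, which asked that a probe exceed background clearly (the scanner flag "well above background") on 2 or more arrays.

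The RNA came from male mouse germline stem cells, cultured spermatogonial stem cells of the testis, in which Nanos2 was switched on to ask which transcripts change. All cells carried Roa-CreERT2, a recombinase that becomes active with 4-hydroxytamoxifen, and CAG-CAT-3FlagNanos2-pA, a tagged Nanos2 under the broadly active CAG promoter. Control cells received DMSO and the others 4-hydroxytamoxifen, both for 48 hours. All cells grew with GDNF and EGF at 20 ng/ml each and FGF2 at 10 ng/ml, on a layer of mitomycin-treated embryonic fibroblasts that was removed before extraction. There were 2 arrays in each group, and without construct-free cells given the compound, Nanos2, recombinase and compound cannot be told apart. The labels do not say whether the replicates were separate cultures, so the p-values reflect only how far these samples scatter, and that scatter may be technical.

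A linker histone sits on the nucleosome where DNA enters and leaves it, and helps to fold chromatin. The genes H1f1 to H1f5 are replication-dependent: their transcripts are made mainly in S phase and typically end in a stem-loop in place of a poly(A) tail. H1f6 is the testis-specific form, best known from spermatocytes, whereas H1f0 and H1f10 are replacement forms made outside S phase from polyadenylated transcripts. Replication-dependent genes can also give longer, polyadenylated transcripts that run past the stem-loop. The labelling kit named in the labels starts from poly(A) tails, and how much of the stem-loop form the signals count is not known from these data.

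The array probes are single stretches of 60 bases, and the place of each probe in its transcript is given with its values below. The following probes lie in the coding part of their genes and are shown because the clearest differences were read by them. The capitals mark the letters AAG in any frame. Read in frame they are a codon of lysine, the amino acid that fills the tails of linker histones, but some of the marked letters are out of frame.
H1f5: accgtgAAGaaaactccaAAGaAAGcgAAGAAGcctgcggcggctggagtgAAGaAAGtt
H1f1: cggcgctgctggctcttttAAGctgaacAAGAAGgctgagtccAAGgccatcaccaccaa
H1f4: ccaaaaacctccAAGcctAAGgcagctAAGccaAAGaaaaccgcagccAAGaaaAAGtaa
H1f3: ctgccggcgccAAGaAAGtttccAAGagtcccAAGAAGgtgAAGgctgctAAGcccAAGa
H1f0: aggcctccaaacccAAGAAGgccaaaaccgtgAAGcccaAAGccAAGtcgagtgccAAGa
H1f10: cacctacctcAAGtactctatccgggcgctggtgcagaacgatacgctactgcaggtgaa
AAG occurs 8 times in the H1f3 probe, 7 times in the H1f5 probe, 6 times in the H1f4 and H1f0 probes, 4 times in the H1f1 probe and once in the H1f10 probe. Over all 41174 probes the median was 1, and 1.52% held it 5 times or more. For the 12 probes of the family, the longest run of letters shared with any probe of another gene was 11 to 16 bases. The longest run shared with a probe of another member was 7 to 10 bases. Whether the probes also bind other transcripts was not tested.

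The replication-dependent genes H1f5 and H1f1 had the lowest differences of the family. H1f5, read by 1 probe at chr13:21871923-21871982 (mm9, minus strand), gave signals of 791.1 and 692.8 with DMSO and of 20.7 and 25.5 with 4-hydroxytamoxifen. Both 4-hydroxytamoxifen arrays were far below both DMSO arrays, a log2 difference of -4.94 ± 0.14 (standard error from limma, 2 arrays per group), or 30.7-fold. The 4-hydroxytamoxifen signals lay just above the dimmest signals called well above background, which were 15.0 to 19.5 on the 4 arrays, and normexp background correction gave -3.22. H1f1, read by 1 probe at chr13:23855888-23855947 (mm9, plus strand), gave 743.0 and 770.0 in DMSO and 48.9 and 52.4 in 4-hydroxytamoxifen. The groups did not overlap, and the log2 difference was -3.83 ± 0.07, or 14.2-fold lower, and -2.84 with normexp.

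H1f4, often among the most abundant linker histones of dividing cells, was lower by a smaller factor. Its probe at chr13:23713707-23713766 (mm9, minus strand), which ends at the stop codon, read 2275 and 2492 in DMSO and 603.8 and 614.4 in 4-hydroxytamoxifen. That was 3.73-fold lower, at -1.90 ± 0.08 on the log2 scale, with no overlap between the groups.

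H1f3 was read by 2 probes that went in opposite directions. The probe in the coding part, at chr13:23647452-23647511 (mm9, plus strand), read 194.0 and 171.7 in DMSO and 49.1 and 53.4 in 4-hydroxytamoxifen, a log2 difference of -1.76 ± 0.10 that became -1.05 with normexp. The other probe, at chr13:23649203-23649262, begins at base 2302 of the transcript listed by the array design, whereas the current RefSeq model of the gene is 776 bases long. It read 77.7 and 70.5 in DMSO and 144.6 and 147.2 in 4-hydroxytamoxifen, a log2 difference of 1.05 ± 0.08, or 2.07-fold higher. Each probe separated the groups without overlap. The distal probe had the higher mean of normalized log2 values over the 4 arrays (the coding probe had the higher mean signal), so it stood for the gene in the fit over all genes, and the mean of both probes had the other sign, -0.36.

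H1f2 was represented only by a probe past its current gene model. The probe at chr13:23832018-23832077 (mm9, plus strand) begins at base 1342 of the listed transcript, against a model length of 725 bases. It read 2431 and 2649 in DMSO and 4728 and 4546 in 4-hydroxytamoxifen, so both 4-hydroxytamoxifen arrays were higher, by 0.94 ± 0.08 or 1.92-fold. No probe read the coding part of H1f2, so the difference of its coding part was not measured.

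H1f6, the testis-specific form, was dim. Its probe at chr13:23788343-23788402 (mm9, plus strand) read 46.2 and 46.6 in DMSO and 10.5 and 15.7 in 4-hydroxytamoxifen, where it was not well above background on either array. Only a bound can therefore be given, at least 2.58-fold lower. For such a bound each dim signal is first raised to the dimmest signal called well above background on its array. The bound holds only without normexp, which gave a log2 difference of -0.46. Of 6 spermatocyte markers, 5 were called lower (limma adjusted p under 0.05), as were 29.3% of all features. Their summed level, in units of each array's 75th percentile, lay between 18.1 and 20.1 with DMSO and between 10.95 and 11.85 with 4-hydroxytamoxifen. Such a sum is weighted to its brightest genes. The part of such cells in the H1f6 values was not tested.

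The replacement forms H1f0 and H1f10 were lower with each of their probes. H1f0, the form linked to cells that have stopped dividing, has 3 probes on chromosome 15 (mm9, plus strand), all within its model of 2293 bases. The brightest, at chr15:78859657-78859716, read 2148 and 2192 in DMSO and 838.2 and 774.9 in 4-hydroxytamoxifen, a log2 difference of -1.36 ± 0.08 or 2.57-fold lower. A dimmer probe at chr15:78859930-78859989 gave 91.4 and 68.5 against 22.2 and 33.4, a log2 difference of -1.47 ± 0.26 that was -0.61 with normexp. The dimmest, at chr15:78859936-78859994, overlaps the second by most of its length and so does not count as a separate reading. It gave 38.7 and 47.8 against 17.4 and 20.5, or 2.17-fold lower, though it was not well above background in 4-hydroxytamoxifen. Both 4-hydroxytamoxifen signals exceeded the dimmest signal called well above background on their arrays, so no separate bound can be given. With normexp its log2 difference was -0.31. No H1f0 probe had overlapping groups.

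H1f10, the most divergent of the somatic forms, was read by a coding probe at chr6:87931037-87931096 (mm9, minus strand) with 498.7 and 504.3 in DMSO and 66.6 and 83.3 in 4-hydroxytamoxifen. Both arrays given the compound were lower, with a log2 difference of -2.68 ± 0.13 or 6.42-fold (-2.00 with normexp). A second probe, designed on an expressed sequence tag and without a genome position in the array files, read 9629 and 4569 in DMSO and 2767 and 2120 in 4-hydroxytamoxifen. It is listed at base 1067 of that tag, and since the tag is not the transcript of the 1062-base gene model, its place against the model is not known. Its DMSO arrays differed from each other by 2.13-fold, so its log2 difference of -1.38 ± 0.41 became -0.84 when DMSO replicate 1 was left out and -1.93 when DMSO replicate 2 was.

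**Figure D1:**
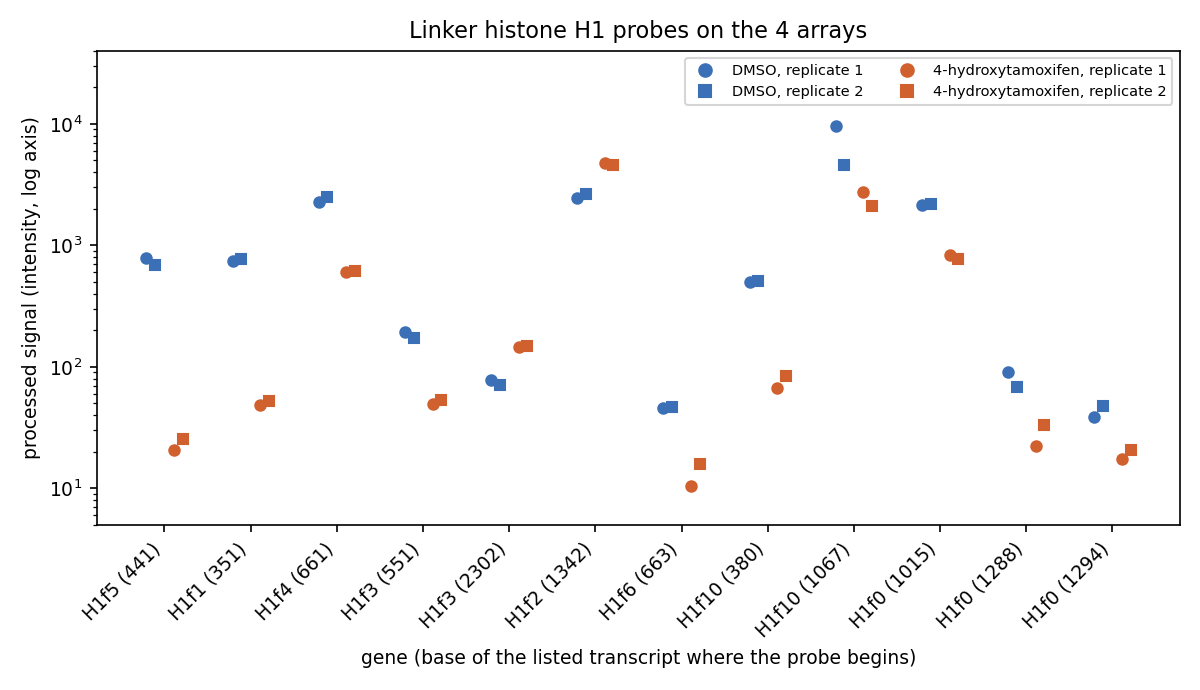
Processed signal (intensity, log axis) of each of the 12 linker histone probes on the 4 arrays; colours stand for DMSO and 4-hydroxytamoxifen, shapes for the replicate, and the number after a gene is the base of the listed transcript where the probe begins. Signals are to be compared between arrays within a probe, not between probes: the H1f5 probe reads 791.1 and 692.8 with DMSO and 20.7 and 25.5 with 4-hydroxytamoxifen, whereas the H1f2 probe and the distal H1f3 probe are higher in 4-hydroxytamoxifen.

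Over the family, 10 of 12 probes were lower and 2 higher in the cells given 4-hydroxytamoxifen, and for all 12 the signals of one group lay entirely on one side of the other's. Probes without overlap were common on these arrays: 40.5% of the 26392 probes that passed the filter were lower and 45.2% higher in that way, and 86.5% of the 17537 genes and other features separated in either direction. The median log2 difference of the 12 probes was -1.62 beside 0.05 over all 26392 probes. The H1f6 probe and the dimmest H1f0 probe passed the filter only through the DMSO arrays, so the filter itself favoured their lower values. That H1f0 probe is also counted here though it is no separate reading. Since the family was chosen for its low members, nothing is read from these shares. The probes that were higher are the H1f2 probe and the distal H1f3 probe, which begin past the gene model on a RefSeq transcript; the H1f10 probe on the expressed sequence tag, which could not be placed in this way, was lower.

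**Figure D2:**
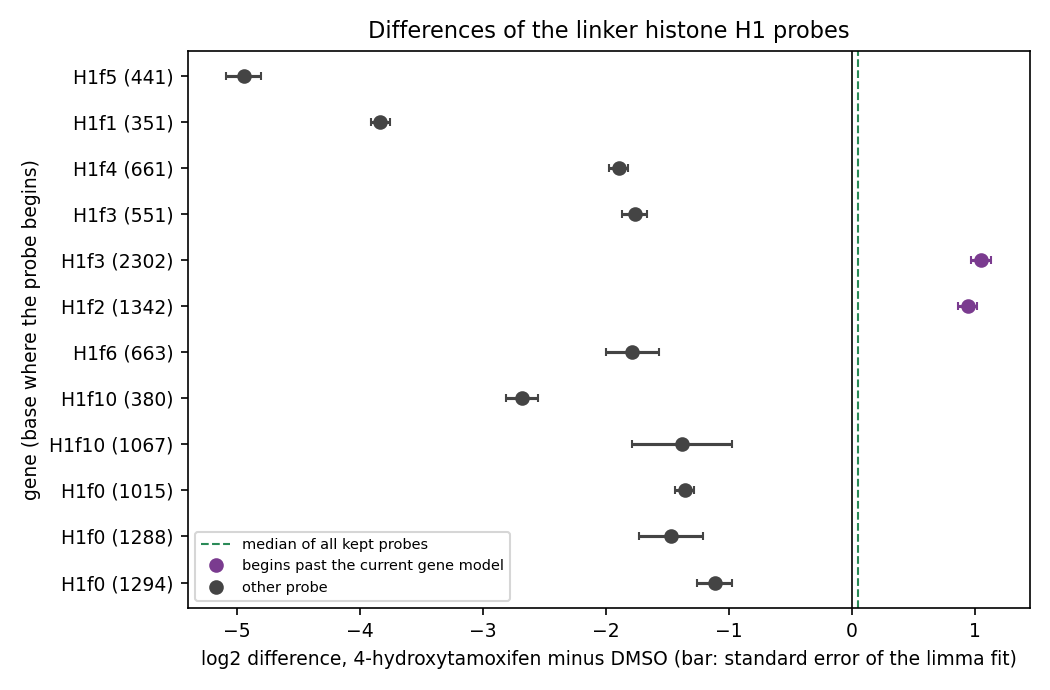
Log2 difference, 4-hydroxytamoxifen minus DMSO, of each linker histone probe, with its standard error from limma as a bar and the median of all probes as a dashed line. Differences run from -4.94 for H1f5 to 1.05 for the distal H1f3 probe; the 2 probes above 0, drawn in purple, begin past the current gene model, and the H1f10 probe at base 1067 of an expressed sequence tag, at -1.38, could not be placed against its model.

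The direction was the same for each of the 12 probes under normexp, under quantile, median and spike-in scaling, with the deposited value table, with a replicate block and without any single array, wherever the probe passed the filter. The sizes of dim probes depended on the background, as with the values given above. H1f6 was measured at -0.46 with normexp against -1.78 without it, and the dimmest H1f0 probe at -0.31 against -1.12.

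Linker histones outside the family as defined here did not enter its choice. They were listed with earlier results of these data known, however, so the p-value given here is not that of an independent test. H1f8, the oocyte form, rose from 93.2 and 107.6 to 448.0 and 477.4, a log2 difference of 2.28 ± 0.10 (limma adjusted p = 0.000472). Both arrays given 4-hydroxytamoxifen were above both DMSO arrays. The spermatid forms H1f7 and Hils1 did not pass the filter on dim probes. At a limma adjusted p under 0.05, the call used here, 69.5% of the 17537 genes and other features tested were called, 29.3% lower and 40.3% higher, so a call by itself was common.

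Because the 2 probes with higher values lie past the gene models, the core histone probes of the array were divided in the same way, a division chosen after the values had been seen. Of 29 probes that begin within the model of a replication-dependent core histone gene, 28 passed the filter, 17 of them called lower and 8 higher, with a median of -0.95. Among all probes tested, 31.1% were called lower and 36.2% higher. Beginning within the model does not place a probe in the coding part, since some models are long. The H2bc4 probe (1.15) begins at base 597 of a model of 8282 bases. Those of H2bc21 (0.62) and H2bc23 (0.04, not called) begin at base 2337 of 2667 and at base 1935 of 3788. Other rises were read within short models: H2bc1 (0.80, base 155 of 432), H2bc14 (0.86, base 172 of 483) and H2bu1-ps (0.82, base 258 of 465). The H2bc12 probes (0.73 and 0.82) begin at bases 106 and 172 of a model of 500 bases. Probes not listed on a RefSeq transcript were left out. Of 4 probes that begin past the model, 3 passed. H2bu2, an H2B gene, was lower at -2.01 ± 0.10, whereas H2ac6 was higher at 0.61 ± 0.07 and a distal probe of H2aw, an H2A gene, at 1.27 ± 0.07. For H2aw the probe within the model differed by -0.16 ± 0.07 and was not called. H3c1, with its probe within the model, had the lowest difference of the division. With 3 probes past the models, no test was made of this division.

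**Figure D3:**
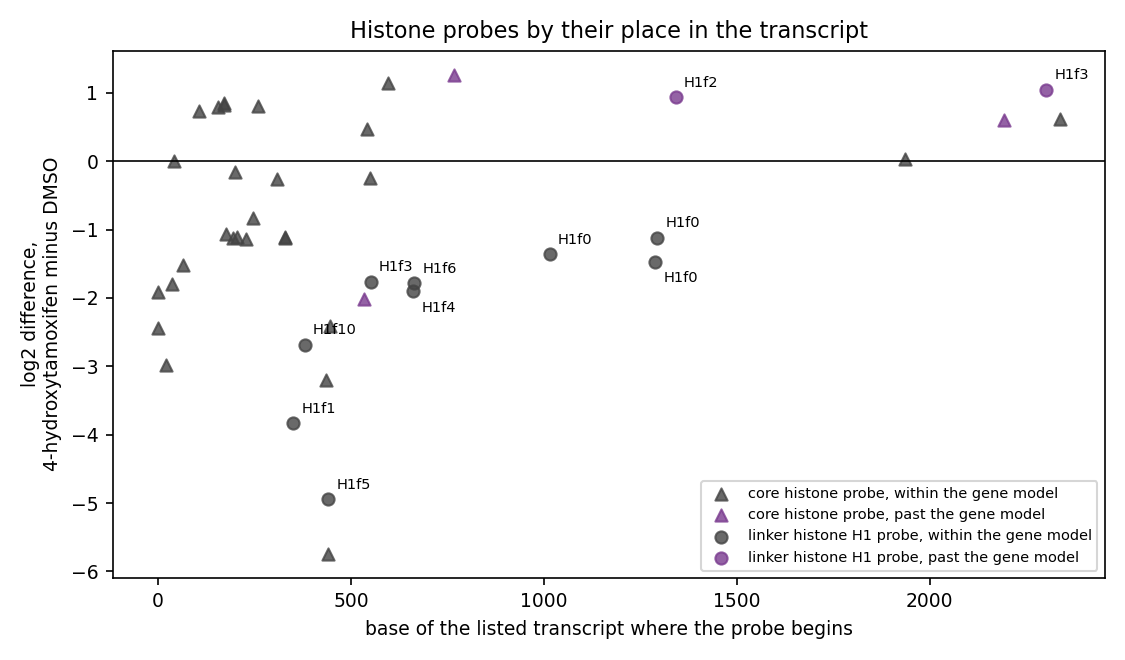
Log2 difference, 4-hydroxytamoxifen minus DMSO, of linker (circles) and core (triangles) histone probes against the base of the listed transcript where the probe begins; purple marks probes that begin past the current gene model, and the H1f10 probe at base 1067 of an expressed sequence tag (-1.38) is not drawn because its base is not counted on a RefSeq transcript. The linker probes past the model, H1f2 and H1f3, lie at 0.94 and 1.05, and the 3 core histone probes past it lie at -2.01, 0.61 and 1.27.

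The starts of the genes were compared in the RefSeq sequences of assembly GRCm38.p6, 1 window of each of the 8 genes, because most members differed in the same direction. The 6 genes of the histone cluster on chromosome 13 are printed as the 150 bases before the start. Capitals mark AAACACA, known as the H1 box of linker histone promoters. They also mark CCAAT, the site of the factor NF-Y, and the TATA box as TATAAA.
H1f1 (chr13:23763518-23763667, plus strand): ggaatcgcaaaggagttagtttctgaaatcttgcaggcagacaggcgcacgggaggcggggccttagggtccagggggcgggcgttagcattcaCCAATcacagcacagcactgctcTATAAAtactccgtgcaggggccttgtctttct
H1f2 (chr13:23738657-23738806, plus strand): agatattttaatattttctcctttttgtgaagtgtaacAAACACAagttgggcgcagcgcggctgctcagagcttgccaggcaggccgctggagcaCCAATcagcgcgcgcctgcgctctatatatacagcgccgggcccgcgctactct
H1f3 (chr13:23554882-23555031, plus strand): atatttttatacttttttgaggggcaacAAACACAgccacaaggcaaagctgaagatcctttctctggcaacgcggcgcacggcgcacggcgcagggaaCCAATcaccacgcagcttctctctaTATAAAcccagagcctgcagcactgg
H1f4 (chr13:23622559-23622708, minus strand): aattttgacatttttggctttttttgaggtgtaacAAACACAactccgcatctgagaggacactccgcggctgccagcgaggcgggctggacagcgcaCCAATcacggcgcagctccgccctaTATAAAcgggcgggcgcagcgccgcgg
H1f5 (chr13:21780626-21780775, minus strand): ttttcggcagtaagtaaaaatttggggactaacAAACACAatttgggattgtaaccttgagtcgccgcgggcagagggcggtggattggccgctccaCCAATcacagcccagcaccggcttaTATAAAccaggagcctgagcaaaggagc
H1f6 (chr13:23695661-23695810, plus strand): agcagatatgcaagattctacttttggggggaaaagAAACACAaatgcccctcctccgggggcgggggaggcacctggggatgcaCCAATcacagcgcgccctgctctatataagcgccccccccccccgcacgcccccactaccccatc
AAACACA begins 112 to 122 bases before the start in 5 of these genes and is not among the letters of H1f1. CCAAT begins 51 to 65 bases before the start in all 6, and TATAAA begins 26 to 33 bases before it in H1f1, H1f3, H1f4 and H1f5. In H1f5, CCAAT occurs again 168 bases before the start and, on the other strand, at 66 bases. In H1f3, TATAAA occurs again on the other strand at 153 and 145 bases. The windows of H1f0 and H1f10 held none of the 3 on either strand. Over all 32851 promoter windows, which run from 250 bases before to 50 after a start, AAACACA occurred in 7.18% on either strand, CCAAT in 37.4% and TATAAA in 13.6%. All 3 occurred together on the gene's strand in 0.155%, and H1f3, H1f4 and H1f5 were among them. Of 23 windows of core histone genes, AAACACA occurred on the gene's strand in 3, CCAAT in 19 and TATAAA in 12. On that strand alone, the shares over all windows were 3.57%, 21.1% and 8.32%. H1f2 and H1f5, whose probes differed by 0.94 and -4.94, both hold AAACACA and CCAAT. The H1f2 probe begins past its gene model, so these values do not compare the coding parts, and the part of the letters in them was not tested. A match of letters is a description and does not show that a factor was bound.

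The members of chromosome 13 lie among core histone genes, and the nearest measured gene on each side was read from the probe positions of the array (mm9). On either side of H1f5 were the H2A genes H2ac15 and H2ac13, called lower at -2.44 ± 0.06 and -1.91 ± 0.06. Next to H1f1, 2073 bases away, was H3c1, an H3 gene that read 466.3 and 443.2 in DMSO and 9.6 and 6.8 in 4-hydroxytamoxifen. It was not well above background in 4-hydroxytamoxifen and was at least 25.3-fold lower. On the other side Slc17a2, a phosphate transporter of the same chromosome stretch, differed by -0.08 ± 0.07 and was not called, though it was called lower under quantile and median scaling. H4c1, also within 5000 bases of the H1f1 probe, was lower at -1.52 ± 0.15.

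The neighbours of H1f2 were split. H2ac4, 11315 bases from its probe, fell from 984.9 and 1008 to 107.2 and 99.9, a log2 difference of -3.20 ± 0.07. Hfe, the haemochromatosis gene, which lies between H1f6 and H1f2, rose by 0.64 ± 0.07. H2bc4, an H2B gene 4065 bases from the H1f6 probe, rose from 3730 and 3782 to 7454 and 8436, by 1.15 ± 0.09. The nearest measured genes on either side of H1f2 thus differed in opposite directions, while both neighbours of H1f6 were higher.

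Beside H1f3, H4c6, an H4 gene 4144 bases away, was called lower at -1.11 ± 0.09, whereas the dim H2ac8 was called higher at 0.47 ± 0.09. The H2ac8 call was lost under spike-in scaling and without 4-hydroxytamoxifen replicate 2 (limma adjusted p = 0.219 and 0.0521). Beside H1f4, H2ac6 was 1.53-fold higher, though not well above background with DMSO. Spike-in scaling also ended the H2ac6 call (limma adjusted p = 0.0628). On the other side of H1f4 a transcript listed as ENSMUST00000129312, on the strand of H1f4 and 2261 bases downstream, read 5.4 and 21.9 in DMSO and 52.9 and 57.6 in 4-hydroxytamoxifen. With DMSO it did not exceed background clearly, and it was at least 3.10-fold higher with 4-hydroxytamoxifen. Its call was lost with no filter and without either 4-hydroxytamoxifen replicate (limma adjusted p = 0.0955, 0.134 and 0.145).

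The replacement genes lie outside the cluster. Of the neighbours of H1f0, Gcat, an enzyme of threonine breakdown, fell (-0.49 ± 0.06), and Triobp, an actin-bundling protein, was called higher at 0.35 ± 0.10. The Triobp call was lost under 7 of 13 other settings, among them the replicate block (limma adjusted p = 0.0581). Of those of H1f10, Hmces, which shields abasic sites in DNA, fell (-0.63 ± 0.07), and Rab7, a GTPase of late endosomes, was called higher at 0.55 ± 0.09, a call lost under spike-in scaling (limma adjusted p = 0.111).

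Transcripts for the machinery that makes and ends histone mRNA were mostly lower. Of 27 genes of histone mRNA 3' processing and decay, 19 were called lower and 2 higher, with a median of -0.63 beside 0.11 over all 17537 features. Over all features, 29.3% were called lower and 40.3% higher. Slbp, which binds the stem-loop of histone mRNA and is needed for its maturation and translation, fell from 15200 on both DMSO arrays to 5023 and 5220, a log2 difference of -1.50 ± 0.06. Srrt, which links the cap-binding complex to RNA processing, fell by 1.57 ± 0.15, as did Cstf2, a cleavage factor, at -1.27 ± 0.07 (its other probes gave -0.92 to -0.62). Tut7, which adds uridines to histone mRNA before its decay, was called higher at 1.28 ± 0.12, yet its other probes ranged from -0.24 to 1.54. Sympk, the scaffold of the cleavage complex, also rose, by 1.24 ± 0.19. It and Npat, Nasp, H4c1, H2bu2, H2aw, H2ac10, H2bc12, H2bc14, H2bu1-ps, H2bc21, H2bc23 and Ddx4 are named beyond the rule, after their values were seen.

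Of 18 transcription factors linked to histone promoters, 14 were called lower and none (0) higher (all features: 29.3% and 40.3%). Their median was -0.43. E2f2, an activator of S phase genes, fell from 2495 and 2400 to 305.1 and 290.4, a log2 difference of -2.97 ± 0.07, and E2f1 reached -1.37 ± 0.08. Nfyc, a subunit of the factor that binds CCAAT, fell by 1.19 ± 0.10. Cramp1l, known for its part in linker histone transcription, fell by 0.98 ± 0.07, and its other probes gave -0.73 to -0.13. Npat, the coactivator of histone genes in S phase, fell by 0.87 ± 0.07.

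Of 20 chaperones of linker histones and proteins that compete with them for the nucleosome, 13 were called lower and 3 higher. The shares over all features were 29.3% and 40.3%, and the median of the list was -0.76. Hmgb2 and Hmgn2, abundant proteins that bind chromatin in competition with linker histones, fell (-2.27 ± 0.08 and -2.05 ± 0.06), as did Hmgn5, a member of the Hmgn2 family (-1.73 ± 0.14). Nasp, a chaperone that carries histones to the nucleus, fell by 1.43 ± 0.06, and its other probe gave -4.07. Hmga2, of a family that displaces linker histones from DNA, rose from 2831 and 3646 to 9222 and 7871, by 1.48 ± 0.16.

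Of 17 chromatin proteins that bind linker histones or act with them, 13 were called lower and 2 higher (all features: 29.3% and 40.3%). Their median was -0.79. Ezh2, the Polycomb methyltransferase, fell by 1.77 ± 0.07. The heterochromatin methyltransferases Suv39h1 (-1.55 ± 0.08) and Suv39h2 (-1.46 ± 0.12) and the lamin B receptor Lbr (-1.52 ± 0.06) fell too. L3mbtl3, a reader of methylated lysines, was called higher at 0.94 ± 0.16, a call lost without 4-hydroxytamoxifen replicate 1 (limma adjusted p = 0.0515). The number called higher was 1 in place of 2 under 4 other settings.

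Of 18 kinases, phosphatases and other enzymes that modify linker histones, 13 were called lower and 2 higher (all features: 29.3% and 40.3%). Their median was -0.54. Aurkb, a mitotic kinase, fell by 3.94 ± 0.08, and Ccna2, the cyclin of S phase and early mitosis, reached -3.71 ± 0.08. Cdk1, the main kinase of H1 in mitosis, fell to a log2 difference of -2.34 ± 0.11, and Ccnb1, its partner, to -2.10 ± 0.08. Padi4, which converts arginines of H1 to citrulline, rose from 211.2 and 198.2 to 572.5 and 615.3, by 1.61 ± 0.08. The number called higher was 1 in place of 2 under 9 other settings.

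Core histone genes were called in both directions. Of 31 replication-dependent core histone genes with a probe, 29 were measured, 17 were called lower and 9 higher (all features: 29.3% and 40.3%). Their median was -0.68. By the brightest probe of each gene, the 4 lowest were H3c1, H2ac4 and H2ac15, given above, and H2ac23 at -2.40 ± 0.06. A dimmer probe of H2ac10, an H2A gene, was at -2.98, whereas its brightest probe was at -1.11. With the brightest probe of each gene, the largest rise was that of H2bc4, given above; the distal H2aw probe was higher still at 1.27. Many core histone genes have near-identical copies whose transcripts a 60-base probe may not separate, so the values of single genes are uncertain. Of 10 replication-independent core histone genes, 6 were called lower and 1 higher (all features: 29.3% and 40.3%), with a median of -0.46. Cenpa, the H3 form of centromeres, (-2.07 ± 0.08), H2az1, a variant H2A (-1.65 ± 0.06), and Macroh2a2, an H2A with a macro domain (-0.74 ± 0.07), fell, whereas H2bc1, a testis H2B that the rules put in both lists, rose by 0.80 ± 0.06.

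Genes of S phase were nearly all lower. Of 28 genes of DNA replication, 27 were called lower and none (0) higher (all features: 29.3% and 40.3%). Their median was -1.30, and 18 were called and at least 2-fold lower, beside 8.2% of all features. Chaf1b, a subunit of the chaperone that places histones on new DNA, fell by 2.72 ± 0.08, and Tk1, thymidine kinase, reached -2.65 ± 0.07. The origin factors Cdc6 (-2.55 ± 0.06) and Cdc45 (-2.45 ± 0.11) fell as well. In bulk RNA, fewer cells in S phase and less RNA per cell cannot be told apart, and the part of either in the values of the replication-dependent linker histones was not tested.

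**Figure D4:**
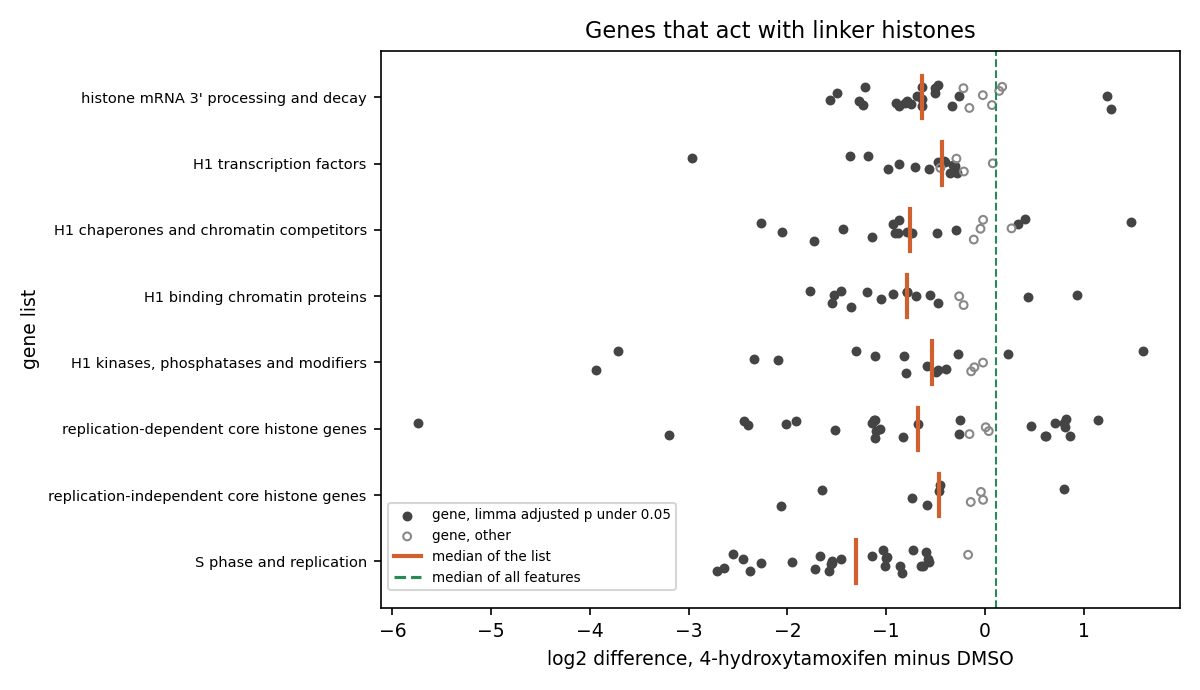
Log2 difference, 4-hydroxytamoxifen minus DMSO, of each measured gene of 8 lists; filled points passed a limma adjusted p of 0.05, open points did not, the bar is the median of the list and the dashed line the median of all 17537 features. List medians run from -0.43 for the transcription factors to -1.30 for S phase genes, beside 0.11 over all features.

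The check of the groups and cells gave the following. Nanos2 rose from 352.8 and 351.7 to 903.8 and 1070 (log2 difference 1.55 ± 0.10, limma adjusted p = 0.000868); its probe may read the endogenous gene, the construct or both. Of 9 germ cell markers with a measured probe, 6 were called lower and 1 higher. Their log2 differences ran from -2.45 to 0.90. Their summed level in units of the 75th percentile was 175.3 to 177.5 in DMSO and 107.6 to 113.1 in 4-hydroxytamoxifen. Ddx4, a germ cell helicase, read 23793 and 22119 in DMSO and 18716 and 20047 in 4-hydroxytamoxifen and was not called. Zbtb16 had no probe. Of 14 embryonic fibroblast markers, 13 were called higher, and their summed level in units of the 75th percentile was 215.4 to 244.8 in DMSO and 383.7 to 401.2 in 4-hydroxytamoxifen. Of 8 macrophage and blood markers 5 were called higher (summed level 1.29 to 1.47 against 2.81 to 2.82). Of 5 measured Sertoli and Leydig markers 2 were called lower and 2 higher (0.813 to 0.897 against 1.53 to 1.59). Of 4 spermatid markers 1 was called higher (0.481 to 0.583 against 0.521 to 0.602). Beside these counts, 29.3% of all features were called lower and 40.3% higher. Fibroblast marker transcripts were thus read in both groups, at a higher level with 4-hydroxytamoxifen. The part of such cells in the values of the H1f2 probe and of the distal H1f3 probe, as of the other members, was not tested.

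For each member with a probe well above background on all arrays, the genes most like it were taken by the Euclidean distance between log2 profiles over the 4 arrays, each centred on its own mean, among 13978 candidates. With 2 groups, such likeness mostly reflects the size of the group difference. The genes nearest to H1f5 were Asb9 (distance 0.09), a subunit of a ubiquitin ligase, Nanos3 (0.20), the germ cell paralogue of Nanos2, and Pde4c (0.33), a cAMP phosphodiesterase. Nearest to H1f1 were Sohlh2 (0.12), a spermatogonial transcription factor, Ccna2 (0.13) and Aurkb (0.13). Nearest to H1f4 were H2-Oa (0.05), of class II antigen presentation, Donson (0.08), a replication fork protein, and Cenpm (0.08), of the kinetochore.

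Nearest to H1f0 were Tmem18 (distance 0.013), Topbp1 (0.018), a factor of replication and its checkpoint, and B4galt4 (0.025), a galactosyltransferase. For H1f2 they were Cers2 (0.014), a ceramide synthase, Pcdhga9 (0.017), a protocadherin, and Plxdc2 (0.017). For the distal H1f3 probe they were Lrrc75b (0.030), the kinase Mknk1 (0.042) and the integrin Itgb4 (0.044). For H1f10, read by the probe whose DMSO arrays differed, the distances were larger: Cldn12 (0.40), a claudin, the pseudogene Ptma-ps2 (0.46) and Ddit4 (0.50), an inhibitor of mTORC1. Ptma-ps2 may share signal with its parent gene.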

How the data were processed

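The samples and groups are those of the labels, 2 arrays with DMSO and 2 with 4-hydroxytamoxifen. The linker histone genes and all gene lists were chosen with earlier results of these data known. The deposited scanner files hold spot intensity on a linear scale; per the file headers, Agilent Feature Extraction subtracted background and detrended each array. The submitters' processing notes name its version 9.5, while the headers name a later one. The authors' deposited value table holds log2 values that differ from log2 of the processed signal by a single constant on each array for 99.66% to 99.68% of values, within 0.01 (constants 0.275 to 0.362, column medians 6.16 to 6.35), and served as an alternative.

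The arrays held 43379 spots without controls, of which 62.1% to 65.9% were well above background and 0 saturated; 60 to 71 outlier spots per array were left out. The arrays share 1 slide and 1 scan. Their number limits the precision: with 2 against 2, an exact two-sided permutation test gives no p under 0.333. Processed signals were divided by the array's 75th percentile (705.3 to 744.4) and taken to log2. Spots of a probe were averaged, and probes well above background on at least 2 arrays were kept, 26392 in all. The brightest probe stood for its gene, which left 17537 features. The groups were tested in limma 3.58.1 under R 4.3.3 (lmFit, eBayes, Benjamini-Hochberg over all features, threshold 0.05), after the fit had been tested on simulated data; probe values come from the same fit over all kept probes. Of 41174 probes, 33636 matched the RefSeq table of GRCm38.p6, used for names, gene lengths and promoters; probe positions are those of the array files, on mm9.

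The text names each member and probe; up to 4 called genes of each list with the largest difference, and the called gene with the largest opposite one; both neighbours of each member; the 3 genes most like it; and Nanos2. Other genes are said to be named after their values were seen. Alternatives covered the deposited value table, normexp (offset 50), scaling by quantiles, the median or spike-in probes, the filter, the mean of a gene's probes, a replicate block, and each array left out. The main fit did not pair arrays of equal replicate number. Deviations of equal numbers from their group means correlated at -0.05, which does not show whether equal numbers shared a culture. For 245 probes with 10 spots each, the spot averages were compared between the arrays of a group. They differed by 4.69 (DMSO) and 5.05 (4-hydroxytamoxifen) times the standard error that the spots give for such a difference. Each array was counted as a sample, though this does not show that the arrays of a group were separate cultures.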

Additional observations from a re-analysis of the deposited data

How the results depend on the processing

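The counts of features called lower, and those of each list called lower, stayed within 1.5 times the main count under all 13 other settings. Of all features, 7059 were called higher and 5136 lower, against 5714 and 6663 with median scaling and 4808 and 4976 with spike-in scaling, where the median of all features was -0.05 in place of 0.11. With the replicate block 11047 features were called in place of 12195, and of the counts and named genes given here the block changed only the number of modifiers called higher (1 in place of 2) and the call of Triobp (0.35, limma adjusted p = 0.0581). Among the small counts called higher, that of the modifiers was 1 with quantile, median and spike-in scaling and with no filter, and 1 without each single array. That of the chromatin proteins was 1 with median and spike-in scaling, and 1 to 2 without each single array. That of the chaperones was 1 with spike-in scaling in place of 3. Without the filter 2 other linker histones were called higher in place of 1, and with the mean of all probes 2 replication-independent core histones in place of 1. H1f3 changed sign to -0.36 with the mean of its probes, which differ in direction. The calls of Cldn12 and Ddit4 were lost with no filter and without either 4-hydroxytamoxifen replicate, and that of Ptma-ps2 without either; the cause was not tested. Dim signals limit H1f6, H1f5 in 4-hydroxytamoxifen and the dimmer H1f0 probes.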
